A study of Mus musculus with 6 samples.

Results

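Zbtb16 and 6 other genes known as targets of the glucocorticoid receptor in liver and other tissues (Fkbp5, Sgk1, Errfi1, Ddit4, Mt1 and Mt2) were followed across the livers of mice treated with atractylodin. The 7 genes were selected on earlier results of the same comparison, by symbol, out of 23282 rows of gene counts. Their differences between the groups are therefore given as sizes with their errors and carry no test. All 7 were among the 12505 rows with enough counts to be tested. Both groups were male C57BL/6N mice that entered a high-fat diet at 8 weeks of age and ate it for 12 weeks. After the first 8 weeks of diet, 1 group received atractylodin, a compound of Atractylodes plants, at 10 mg/kg by mouth on 5 days per week for 4 weeks, and the other received vehicle. Liver RNA of 3 libraries per group was read by QuantSeq, which sequences the 3' end of each transcript. All animals of both groups ate this diet, and liver fat was not measured in the data used here.

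The glucocorticoid receptor is a nuclear receptor that binds corticosterone in mice, moves to the nucleus and there activates some genes and represses others. In hepatocytes it is known for driving gluconeogenesis during fasting and stress, and it also induces proteins that limit signalling, among them the co-chaperone FKBP51, which lowers the receptor's own affinity for hormone. The genes described here cover those roles: a transcription factor (Zbtb16), a feedback co-chaperone (Fkbp5), a kinase (Sgk1), inhibitors of growth factor and nutrient signalling (Errfi1 and Ddit4) and metal-binding proteins (Mt1 and Mt2). Most of them also answer to other signals. Growth factors, hypoxia, amino acid shortage, zinc and inflammatory cytokines are known inducers of one or more of them.

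Vehicle 1 was shallow, with 1831461 counts, against 9871762 to 12565393 in the 3 atractylodin libraries and 11120089 and 12111553 in vehicle 2 and 3. On the first principal component it lay at 39.5, while the atractylodin libraries lay between -15.2 and -12.6 and the other vehicle libraries at 1.27 and 0.47. Levels are given as CPM, the counts of a gene relative to the library's size, which was first corrected by TMM, a factor that sets the bulk of the genes level between libraries. A count of 3 equals 0.251 to 0.313 CPM in the atractylodin libraries, 1.61 CPM in vehicle 1 and 0.243 to 0.258 CPM in vehicle 2 and 3. The liver label was met by Alb, the albumin gene, at 56104, 52549 and 47792 CPM with atractylodin, against 55869, 53195 and 53403 CPM with vehicle. Whether each library is 1 animal is not stated in the labels, and p-values hence measure variation among libraries, which may be technical. In bulk liver, fewer cells of a type and less RNA per cell cannot be told apart.

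All 7 genes had a higher mean level with atractylodin, but they differed widely in how far the libraries agreed. Zbtb16, Fkbp5 and Errfi1 were higher in every atractylodin library than in every vehicle library. For Sgk1, Ddit4, Mt1 and Mt2 the groups overlapped. Of all tested rows, 13.5% had every atractylodin library above every vehicle library, and 26.2% had groups that did not overlap in either direction. By edgeR's quasi-likelihood test with Benjamini-Hochberg adjustment, 7.25% of the rows passed an adjusted p of 0.05, 3.92% as higher (490 rows) and 3.33% as lower (416 rows) with atractylodin. With total counts in place of TMM the split was 312 higher and 707 lower. Zbtb16 and Fkbp5 were 2 of those higher rows, from which nothing is read, since the genes were selected on this comparison.

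**Figure D1:**
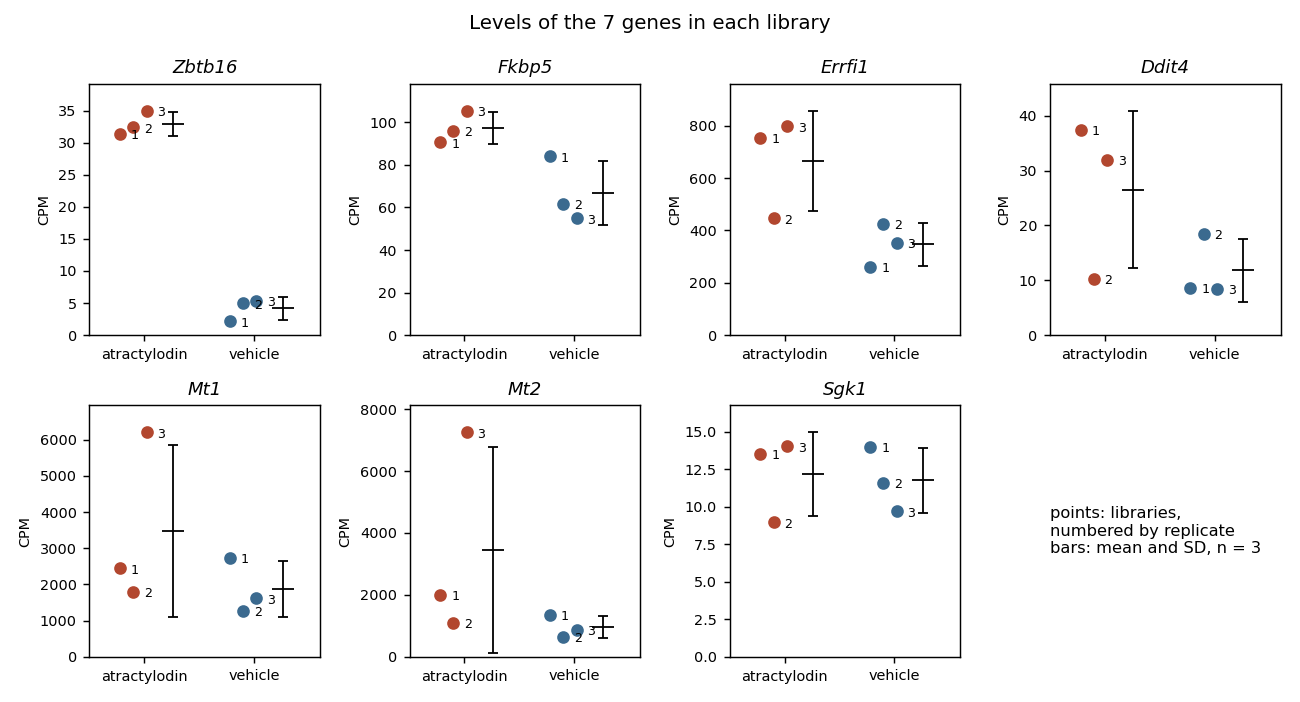
Level of each of the 7 genes in each library, in CPM on linear axes that start at 0, with the 3 atractylodin libraries left of the 3 vehicle libraries and the mean and SD of each group beside them. The atractylodin libraries of Zbtb16 lie between 31.4 and 35.0 CPM, while those of Mt2 spread over 1100.3 to 7251 CPM.

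Zbtb16 encodes PLZF, a zinc-finger transcription factor with a BTB domain that recruits corepressors, and it is among the genes most strongly induced by glucocorticoid in many cell types. Its level was 31.4, 32.4 and 35.0 CPM in atractylodin 1, 2 and 3, against 2.15, 4.98 and 5.34 CPM in vehicle 1, 2 and 3. The 3 atractylodin libraries stood close together and well above every vehicle library. The fitted log2 fold change was 2.78 ± 0.19 (SE), or 6.86-fold. Group means were 32.9 ± 1.86 CPM with atractylodin and 4.16 ± 1.74 CPM with vehicle (SD, n = 3 each). The lowest vehicle value rests on 4 counts, for which the exact Poisson 95% interval was 0.587 to 5.51 CPM, and that interval contains the levels of vehicle 2 and 3. It stays under the intervals of all atractylodin libraries, the lowest of which began at 28.0 CPM. These intervals cover counting error only. Leaving out each library in turn gave log2 fold changes between 2.67 and 2.91. Zbtb16 lies on chromosome 9, on the minus strand at chr9:48654297-48836222 (GRCm38).

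Other genes of the Zbtb family were read beside Zbtb16. Of 39 in the files, 34 were tested, and none passed the threshold with edgeR, DESeq2 or limma-voom, and 4 had an unadjusted p under 0.05 with edgeR. The family's median log2 fold change was 0.07, against -0.0015 over all tested rows. The smallest p-values belonged to Zbtb40, at 0.82 ± 0.29, and Zbtb21, at 0.69 ± 0.25, each with an adjusted p of 0.104. In other settings Zbtb40 passed as higher with no filter (adjusted p = 0.0341), and Zbtb20 with no filter, with the replicate block and without atractylodin 1.

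PLZF is also a defining factor of natural killer T cells, so T-cell and natural killer T-cell genes were read beside it. The summed level of 20 such genes was 11.8, 12.6 and 19.4 CPM in the atractylodin libraries, against 13.5, 21.7 and 19.2 CPM in the vehicle libraries. The groups overlapped, and the lowest sum was that of atractylodin 1. Cd3e, a subunit of the T-cell receptor complex, had 0, 0 and 3 counts with atractylodin, against 0, 5 and 2 with vehicle. Klrb1c, the NK1.1 antigen, had 6, 1 and 19 counts with atractylodin, against 0, 2 and 7 with vehicle. Of the 6 T-cell genes with enough counts to test, 0 rose and 1 fell. That was Themis, a T-cell signalling protein, with a log2 fold change of -2.28 ± 0.46 (adjusted p = 0.00782). Themis had 2.39, 0.313 and 1.42 CPM in the atractylodin libraries, against 4.84, 8.33 and 6.23 CPM in the vehicle libraries. It made up a large part of the vehicle sums above, so the order of the libraries by that sum depends in part on Themis. The median over the 6 was 0.24, with 4 positive estimates. Gata3, a factor of T helper cells, had 1.66 ± 0.56 (adjusted p = 0.0858), with groups that did not overlap. Cd28, a costimulatory receptor with too few counts for the test, had 8, 11 and 12 counts with atractylodin, against 0, 1 and 0 with vehicle, and passed as higher when no filter was used or atractylodin 1 was left out. Cd8b1 passed as higher without vehicle 3, and Ccl5 as lower without atractylodin 3. The part of these cells in the level of Zbtb16 was not tested.

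Fkbp5 encodes FKBP51, the co-chaperone of HSP90 that holds the receptor in a state of low hormone affinity. It was read at 90.7, 96.1 and 105.6 CPM in the atractylodin libraries, against 84.0, 61.6 and 54.9 CPM in the vehicle libraries. Every atractylodin library was above every vehicle library, although vehicle 1 came close to atractylodin 1. The log2 fold change was 0.59 ± 0.13, or 1.51-fold, with means of 97.4 ± 7.54 CPM with atractylodin and 66.8 ± 15.2 CPM with vehicle. The estimate lay between 0.46 and 0.74 when each library was left out in turn. Its annotated span, chr17:28399094-28517527 on the minus strand, overlaps other annotated genes on both strands. Whether counting used strand is not given in the sources used here, so reads of those genes may not have been told apart from Fkbp5.

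Other immunophilin genes of the family were read beside Fkbp5. Among 13 other Fkbp genes, 10 were tested, of which 0 rose and 1 fell, and their median log2 fold change was -0.20. The gene that fell was Fkbp11, a peptidyl-prolyl isomerase of the secretory pathway, with 4.73 ± 0.39 CPM with atractylodin and 11.1 ± 1.81 CPM with vehicle (log2 fold change -1.21 ± 0.24, adjusted p = 0.00399). Fkbp4, which encodes the co-chaperone FKBP52 that favours hormone binding, had a log2 fold change of 0.06 ± 0.09 (adjusted p = 0.765).

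Sgk1 encodes a serine/threonine kinase that phosphorylates ion channel regulators and FOXO factors and is induced by glucocorticoids, mineralocorticoids, serum and cell shrinkage. It did not separate the groups. Its level was 13.6, 8.98 and 14.0 CPM in the atractylodin libraries, against 14.0, 11.6 and 9.70 CPM in the vehicle libraries. The atractylodin values covered the whole vehicle range, and atractylodin 2 was the lowest of the 6 libraries. The log2 fold change was 0.12 ± 0.22, and its sign depended on single libraries, with values from -0.01 to 0.30 when each was left out. The gene spans chr10:21882184-21999903 on the plus strand.

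The start of Sgk1 is shown because it was the window of these genes that held the full glucocorticoid response element searched for. RefSeq promoter windows on GRCm38.p6, from 250 bases before to 50 bases after a start, were available for 6 of the 7 genes, in 12 windows, of which Sgk1 had 6. Zbtb16 was not matched there. The palindrome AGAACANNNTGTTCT was found in 3 of 32851 windows of all genes (0.00913%), 1 of them at Sgk1, at chr10:21993640-21993939 on the plus strand. Capitals mark it, and its first base lies at -189 from that start. The other Sgk1 windows did not hold it.
Sgk1: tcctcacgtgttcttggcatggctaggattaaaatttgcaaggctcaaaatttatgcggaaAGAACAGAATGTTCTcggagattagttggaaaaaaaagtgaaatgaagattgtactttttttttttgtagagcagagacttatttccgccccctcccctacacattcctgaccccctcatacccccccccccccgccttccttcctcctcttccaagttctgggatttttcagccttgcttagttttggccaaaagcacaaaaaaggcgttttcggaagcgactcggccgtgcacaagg
A looser form, GNACANNNTGTNC, was found in 156 windows (0.475%), which included this Sgk1 window, where it lies inside the palindrome, and that of Mt1. The shorter element AGAACA, on either strand, was found in 19.0% of all windows and, among the 12 windows, only in 3 of Sgk1. Counts of 3' tags cannot tell which of the starts was used, and a match describes letters, not binding.

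Genes around the SGK kinases included some that passed the test. Of 9 kinase relatives and substrates, 8 were tested, with 2 that rose and 0 that fell. Foxo1, a transcription factor that drives gluconeogenic genes and is excluded from the nucleus after phosphorylation by AKT or SGK, rose to 117.5 ± 24.1 CPM with atractylodin, against 74.9 ± 6.53 CPM with vehicle (log2 fold change 0.67 ± 0.13, adjusted p = 0.00676). Nedd4l, a ubiquitin ligase held in check by SGK1, rose to 67.9 ± 11.9 CPM with atractylodin, against 46.4 ± 4.71 CPM with vehicle (0.57 ± 0.13, adjusted p = 0.0123). Nedd4l no longer passed when vehicle 2 (adjusted p = 0.0684) or vehicle 3 (0.0625) was left out. Over the list the median log2 fold change was -0.04, and Sgk2 had a mean of 74.1 ± 10.1 CPM with atractylodin and 86.7 ± 5.60 CPM with vehicle (adjusted p = 0.259).

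Errfi1 encodes MIG6, which binds the kinase domain of the epidermal growth factor receptor (EGFR) and inhibits it. Its level was 754, 446 and 798 CPM in the atractylodin libraries, against 261, 425 and 354 CPM in the vehicle libraries. The groups did not overlap, yet atractylodin 2 lay close to vehicle 2 and far below the other atractylodin libraries. The log2 fold change was 0.93 ± 0.31, or 1.91-fold. Means were 666 ± 192 CPM with atractylodin and 347 ± 82.4 CPM with vehicle. Leaving out each library in turn gave estimates between 0.78 and 1.16. Without vehicle 1 and atractylodin 3 together, a setting chosen after seeing the data, the estimate was 0.62. Errfi1 lies at chr4:150853919-150868892 on the plus strand, and 1700045H11Rik is annotated on the opposite strand there.

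The receptor that MIG6 inhibits, its relatives and their ligands made a list of 14 genes, of which 8 were tested. None passed the threshold with edgeR, DESeq2 or limma-voom, and 3 had an unadjusted p under 0.05 with edgeR. Their median log2 fold change was 0.19. Egfr was read at 66.5, 61.9 and 109 CPM in the atractylodin libraries, against 59.2, 38.9 and 32.7 CPM in the vehicle libraries (adjusted p = 0.197). The smallest p-values belonged to Lrig1, another inhibitor of the receptor, at 0.52 ± 0.18 (adjusted p = 0.101), and the ligand gene Btc, at -1.44 ± 0.53 (adjusted p = 0.11), which passed without atractylodin 3 (0.037). Egfr did not overlap between the groups, and atractylodin 3 was its highest library. It passed as higher without both vehicle 1 and atractylodin 3.

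Ddit4 encodes REDD1, an inhibitor of the growth kinase complex mTORC1 that is induced by glucocorticoid, hypoxia and energy shortage. It was read at 37.5, 10.2 and 32.0 CPM in the atractylodin libraries, against 8.61, 18.5 and 8.41 CPM in the vehicle libraries. Atractylodin 1 and 3 were the highest of the 6 libraries, but atractylodin 2 fell inside the vehicle range and vehicle 2 lay above the other vehicle libraries. The log2 fold change was 1.08 ± 0.66, or 2.12-fold, with a span of 0.77 to 1.66 over the fits that left out each library. Atractylodin 2 was 3.34-fold below the mean of the other atractylodin libraries on the log2 scale. Among 9659 well-measured rows (average log2 CPM at or above 2), 15, Ddit4 included, fell at least as far below their own mean in the other atractylodin libraries. Vehicle 2 was 2.14-fold above the mean of its 2 companions, with 75 rows, Ddit4 included, at least as far above theirs. Ddit4 lies at chr10:59949669-59951834 on the minus strand.

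Of 18 tested genes that set or read mTORC1 activity, 1 rose and 0 fell, and the median log2 fold change was 0.04. The gene that rose was Rheb, the GTPase that activates mTORC1, with 40.5 ± 6.84 CPM with atractylodin and 26.6 ± 1.23 CPM with vehicle (0.62 ± 0.14, adjusted p = 0.0115). Rheb no longer passed without atractylodin 2, vehicle 2 or vehicle 3, at adjusted p-values of 0.0548, 0.0569 and 0.0533 in those 3 fits.

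Mt1 and Mt2 encode metallothioneins, small cysteine-rich proteins that bind zinc, copper and cadmium. They are induced through the metal-sensing factor MTF1 and, in liver, also by glucocorticoid and by interleukin-6. Mt1 was read at 2450.2, 1803 and 6203 CPM in the atractylodin libraries, against 2744, 1266 and 1616 CPM in the vehicle libraries. Mt2 was read at 2009.5, 1100.3 and 7251 CPM in the atractylodin libraries, against 1366, 649 and 878 CPM in the vehicle libraries. For both genes atractylodin 3 stood far above the other libraries, the groups overlapped, and vehicle 1 was the highest vehicle library. The log2 fold change was 0.90 ± 0.63 for Mt1 and 1.85 ± 0.88 for Mt2. Without atractylodin 3 it was 0.19 for Mt1 and 0.70 for Mt2.

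Atractylodin 3 exceeded the mean of atractylodin 1 and 2 by 4.88-fold for Mt2 and 2.95-fold for Mt1, on the log2 scale. Counting the gene itself, 9 of 9659 rows had an excess in that library at least as large as that of Mt2, and 23 as that of Mt1. Together the pair took 0.441%, 0.282% and 1.28% of the counts in the atractylodin libraries, against 0.417%, 0.201% and 0.255% in the vehicle libraries.

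The balance between the metallothioneins, which depends on no scaling between libraries, separated the groups where their levels did not. The ratio of Mt2 to Mt1 counts was 0.820, 0.610 and 1.17 in the atractylodin libraries, against 0.498, 0.513 and 0.544 in the vehicle libraries. Every atractylodin library was above every vehicle library, and the vehicle libraries agreed closely. As a share of the summed counts, Mt2 made up 45.1% (exact Clopper-Pearson 95% interval 44.6 to 45.5), 37.9% (37.3 to 38.5) and 53.9% (53.7 to 54.1) in the atractylodin libraries. In the vehicle libraries it made up 33.2% (32.2 to 34.3), 33.9% (33.3 to 34.5) and 35.2% (34.7 to 35.8). The intervals of the groups did not meet, but they cover counting error only, and the atractylodin libraries spread far beyond theirs. This ratio was computed after the values of both genes were seen and carries no test. Reads shared between near-identical stretches of the pair could have been split or dropped in counting, which was not tested.

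**Figure D2:**
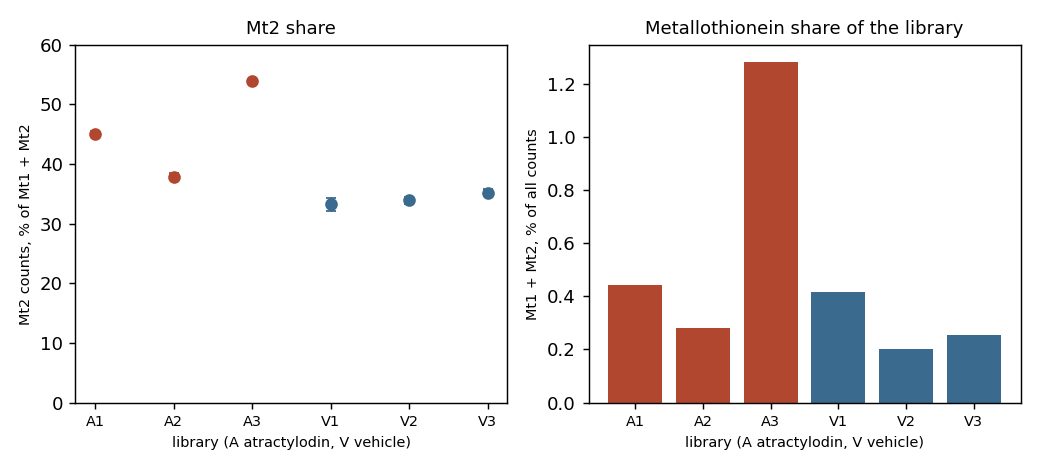
Metallothionein counts by library, with the atractylodin libraries (A1 to A3) left of the vehicle libraries (V1 to V3). The plots show the Mt2 share of the summed Mt1 and Mt2 counts in percent with exact 95% intervals, and the sum as a percent of all counts of the library. The Mt2 share lies between 37.9% and 53.9% with atractylodin and between 33.2% and 35.2% with vehicle.

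Both genes lie on the plus strand of chromosome 8, Mt2 at chr8:94172664-94173568 and Mt1 at chr8:94179082-94180327, with 5513 bases between the end of Mt2 and the start of Mt1. Gm45774 is annotated on the opposite strand at Mt2. Their RefSeq promoter windows (GRCm38.p6, plus strand, Mt1 at chr8:94178839-94179138 and Mt2 at chr8:94172368-94172667) are shown because the pair is a textbook case of metal response elements packed near the start. Capitals mark each match to the core TGCACNC or TGCGCNC on either strand.
Mt1: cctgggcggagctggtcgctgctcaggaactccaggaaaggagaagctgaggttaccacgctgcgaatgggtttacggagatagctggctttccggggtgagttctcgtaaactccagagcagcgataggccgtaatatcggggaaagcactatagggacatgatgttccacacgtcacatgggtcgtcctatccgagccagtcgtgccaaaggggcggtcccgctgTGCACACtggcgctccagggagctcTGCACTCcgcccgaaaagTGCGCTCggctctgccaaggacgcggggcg
Mt2: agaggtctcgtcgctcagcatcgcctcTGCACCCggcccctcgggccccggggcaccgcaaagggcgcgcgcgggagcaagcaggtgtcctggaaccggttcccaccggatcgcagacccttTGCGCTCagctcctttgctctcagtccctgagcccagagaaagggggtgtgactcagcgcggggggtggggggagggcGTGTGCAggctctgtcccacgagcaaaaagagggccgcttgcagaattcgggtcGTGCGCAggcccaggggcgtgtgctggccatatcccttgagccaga
Mt1 held 3 matches and Mt2 held 4. At least 1 match was found in 25.7% of all windows, and 3 or more in 1.97%. Among the other windows of these genes, 1 of Sgk1 and that of Ddit4 held 1 match each. The looser glucocorticoid response element in the Mt1 window, GGACATGATGTTC, began at -94 from the start, and the Mt2 window held none.

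Genes of metal handling did not move as a block. Of 19 such genes 16 were tested, 1 rose and 1 fell, and the median log2 fold change was 0.03. Gclc, a subunit of the enzyme that limits glutathione synthesis, rose to 437 ± 25.2 CPM with atractylodin, against 258 ± 31.8 CPM with vehicle (0.76 ± 0.10, adjusted p = 0.000226). Slc30a10, a manganese exporter, fell to 12.8 ± 4.99 CPM with atractylodin, against 25.8 ± 2.92 CPM with vehicle (-0.97 ± 0.25, adjusted p = 0.0428). Slc30a10 no longer passed in 4 of the 6 leave-one-out fits, those without atractylodin 1 (adjusted p = 0.14), vehicle 1 (0.144), vehicle 2 (0.13) or vehicle 3 (0.112). The zinc exporter Slc30a1, a classic MTF1 target, had 74.5 ± 4.80 CPM with atractylodin and 62.7 ± 3.09 CPM with vehicle (adjusted p = 0.14). Mt3 had 1 count in all 6 libraries together and Mt4 had 0.

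**Figure D3:**
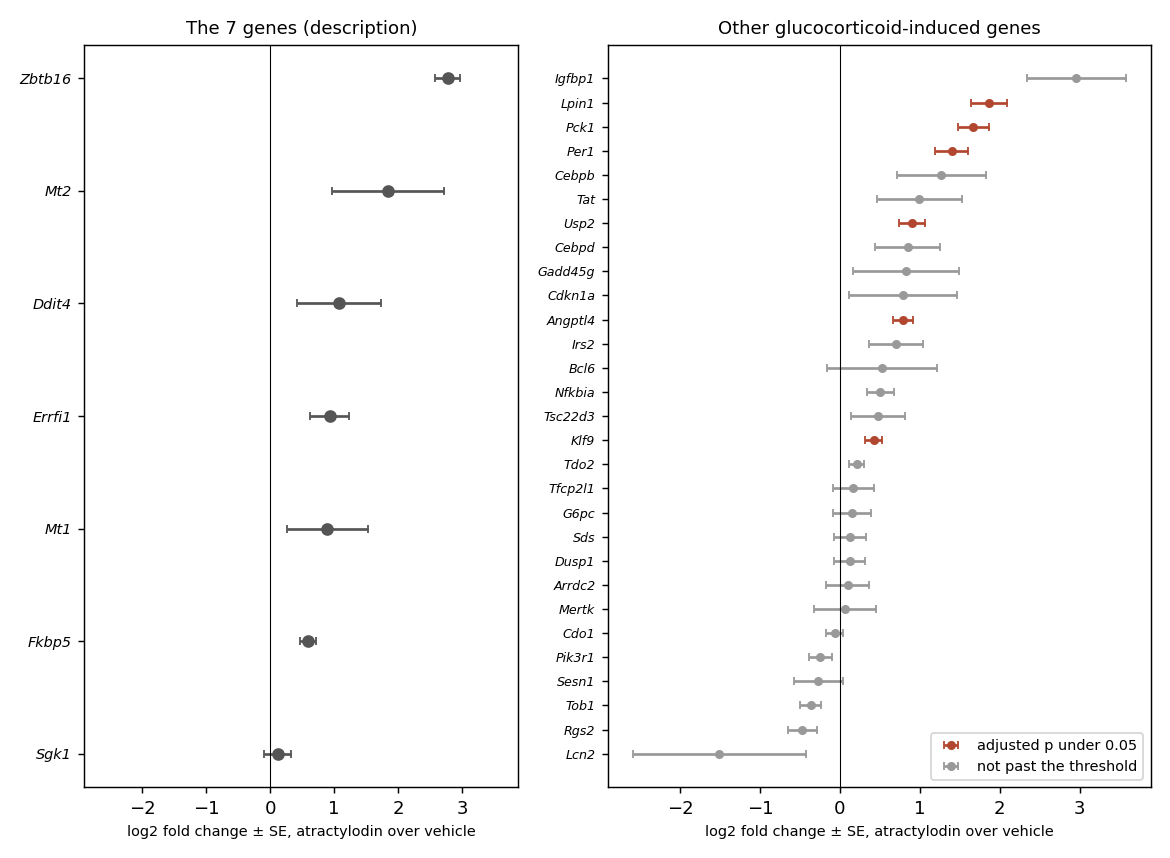
Log2 fold change of atractylodin over vehicle with its SE for the 7 genes and for the other glucocorticoid-induced genes with a value, from edgeR on 3 libraries per group. Among the 7 genes the estimates run from 0.12 for Sgk1 to 2.78 for Zbtb16, and the errors from 0.13 for Fkbp5 to 0.88 for Mt2.

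The 7 genes also differed in how far the libraries of a group spread. Among atractylodin libraries, the SD of log2 CPM was 0.08 for Zbtb16 and 0.11 for Fkbp5, under the median of 0.16 over 9659 rows. It was 0.35 for Sgk1, 0.46 for Errfi1, 0.93 for Mt1, 1.01 for Ddit4 and 1.39 for Mt2, and 99.9% of rows had a smaller SD than Mt2. Among vehicle libraries, all 7 exceeded the median of 0.17, with values from 0.26 for Sgk1 to 0.68 for Zbtb16. The vehicle value of Zbtb16 includes vehicle 1, with its 4 counts.

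The libraries that stood out were not the same for each gene. Atractylodin 2 was the lowest atractylodin library for Sgk1, Errfi1, Ddit4, Mt1 and Mt2, but not for Zbtb16 or Fkbp5. Atractylodin 3 was the highest atractylodin library for all of the 7 except Ddit4. Vehicle 1 was the lowest vehicle library for Zbtb16 and Errfi1 and the highest for Fkbp5, Sgk1, Mt1 and Mt2.

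**Figure D4:**
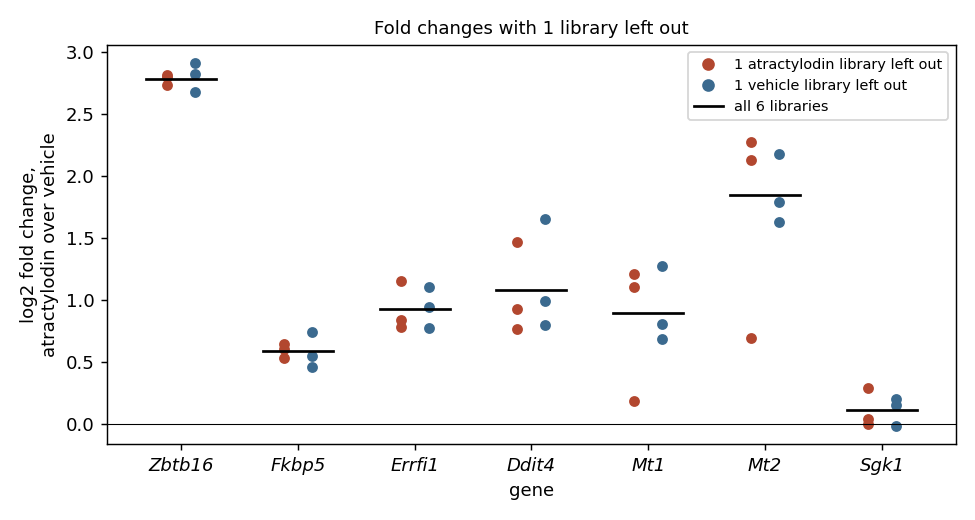
Log2 fold change of atractylodin over vehicle for each of the 7 genes in the fit of all 6 libraries and in the 6 fits that left out 1 library each. The estimates of Zbtb16 stay between 2.67 and 2.91, while those of Mt2 run from 0.70 without atractylodin 3 to 2.27.

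Profiles over the 6 libraries were compared by the root mean square difference between log2 CPM values centred on each gene's mean, over 9652 rows. The 5 rows most like Zbtb16 were Igfbp1 (0.54), Lpin1 (0.59), Cyp2a4 (0.62), Cyp2a5 (0.66) and Pck1 (0.69). Of these, Igfbp1, Lpin1 and Pck1 are also on the list of glucocorticoid-induced genes described below, and Igfbp1 is on the fasting list too. Igfbp1, which encodes a binding protein of insulin-like growth factors, was read at 482, 171 and 557 CPM in the atractylodin libraries, against 29.1, 50.1 and 68.2 CPM in the vehicle libraries. Cyp2a5, a coumarin hydroxylase, was read at 1013, 1437 and 1535 CPM in the atractylodin libraries, against 282, 476 and 337 CPM in the vehicle libraries. Both genes had their lowest value in vehicle 1, as Zbtb16 did. Cyp2a4 is a near-identical copy of Cyp2a5, so their counts are uncertain as separate values. With a smaller prior count of 0.5, 4 of these 5 genes were again among the 5 most alike. Likeness here ranks rows by profile over 6 libraries that share the group difference and says nothing of shared control.

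Ddit4 and Mt2 were searched the same way after their values had been seen. The row most like Ddit4 was Marco, a scavenger receptor of macrophages, at 0.32, with 35.2, 5.33 and 14.6 CPM in the atractylodin libraries, against 5.38, 10.6 and 5.58 CPM in the vehicle libraries. Socs2, a feedback inhibitor of growth hormone signalling, and the stress gene Gadd45b followed at 0.37 and 0.38. The row most like Mt2 was Chac1, a glutathione-degrading enzyme of the amino acid stress response, at 0.47, with 5.38, 2.92 and 20.1 CPM in the atractylodin libraries, against 2.15, 1.80 and 4.45 CPM in the vehicle libraries. Next came the interleukin-1 receptor Il1r1 at 0.53, and Cebpb, a factor of the acute phase response, at 0.54. Cebpb is also on the list of glucocorticoid-induced genes described below. Il1r1 and Cebpb shared the high value in atractylodin 3, with 15.3, 21.7 and 67.6 CPM for Il1r1 in the atractylodin libraries, against 16.1, 13.1 and 14.1 CPM in the vehicle libraries. These rows were found by their likeness, so their shared pattern is no separate result.

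**Figure D5:**
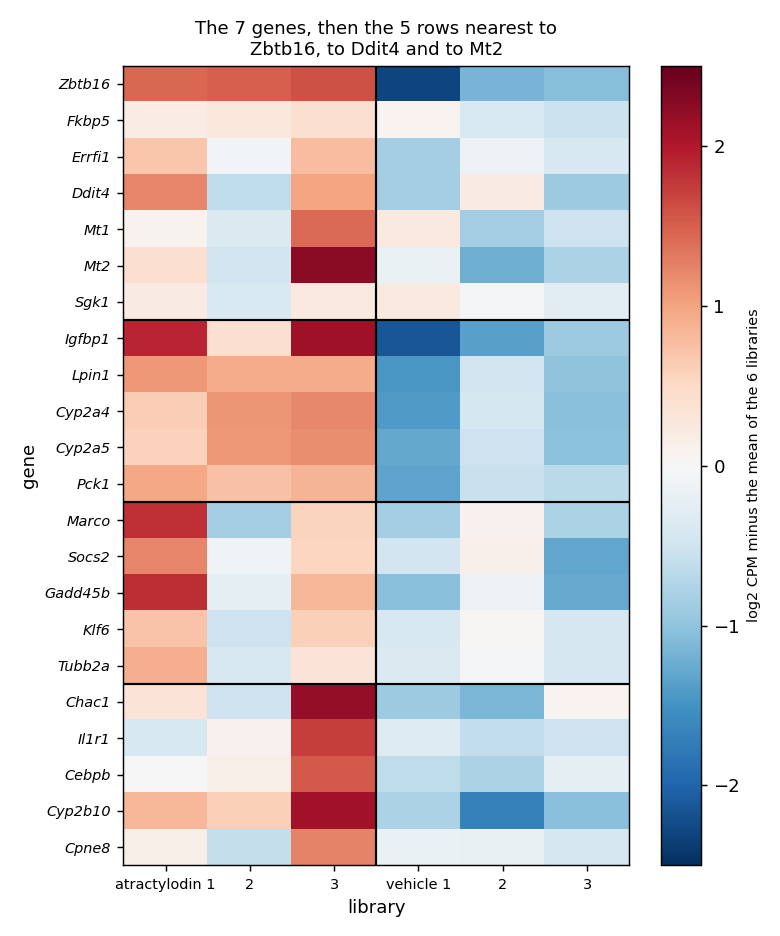
Centred log2 CPM, the level minus the gene's mean over the 6 libraries, for the 7 genes and the rows most like Zbtb16, Mt2 and Ddit4, with the atractylodin libraries left of the vehicle libraries. Zbtb16 and its likest rows are high in all 3 atractylodin libraries, while Mt2 and its likest rows peak in atractylodin 3.

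Other genes known to be induced by glucocorticoid were examined as a list of 30, chosen with earlier results of these data known. Of the 29 tested, 6 rose and 0 fell. The count lower was 0 with DESeq2 and limma-voom too, and 11 of the 29 had an unadjusted p under 0.05 with edgeR. The median log2 fold change was 0.48, against -0.0015 over all rows, and 23 of 29 estimates were positive. Across all rows 3.92% rose. Without atractylodin 2 the list held 10 genes that rose, against 5 without vehicle 1, where 2.17% of 12883 rows rose. Without both vehicle 1 and atractylodin 3, Per1, Pck1, Angptl4 and Lpin1 were the 4 that rose.

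The 6 that rose included genes of gluconeogenesis, lipid handling and the clock. Per1, a clock repressor with a glucocorticoid response element, rose to 35.2, 19.9 and 30.1 CPM with atractylodin, against 10.8, 12.0 and 9.54 CPM with vehicle (log2 fold change 1.40 ± 0.20, adjusted p = 0.000712). Pck1, which encodes the gluconeogenic enzyme phosphoenolpyruvate carboxykinase, rose to 3644 ± 305 CPM with atractylodin, against 1145 ± 301 CPM with vehicle (1.67 ± 0.19, adjusted p = 0.00247). Lpin1, a phosphatidate phosphatase and coactivator, rose to 279 ± 17.4 CPM with atractylodin, against 74.5 ± 25.2 CPM with vehicle (1.86 ± 0.22, adjusted p = 0.00644). Angptl4, which blocks lipoprotein lipase, rose by 0.79 ± 0.12 (adjusted p = 0.00154), and the deubiquitinase Usp2 by 0.90 ± 0.16 (adjusted p = 0.00901). Klf9, a glucocorticoid-induced repressor, rose by 0.42 ± 0.10 (adjusted p = 0.0191), but its call was lost without atractylodin 1 (0.0943), vehicle 1 (0.106) or vehicle 2 (0.0535). With total counts in place of TMM, Klf9 did not pass either.

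Several of the best known targets on that list did not pass. Igfbp1 had the largest estimate, 2.96 ± 0.62, at an adjusted p of 0.0796, and passed with DESeq2 and without atractylodin 2 (adjusted p = 0.02). Tsc22d3, which encodes the anti-inflammatory mediator GILZ, was read at 120, 80.7 and 83.3 CPM in the atractylodin libraries, against 56.0, 95.5 and 48.9 CPM in the vehicle libraries (adjusted p = 0.509). Dusp1, a phosphatase of MAP kinases, had 59.3, 38.4 and 45.3 CPM with atractylodin, against 30.7, 45.8 and 49.96 CPM with vehicle (adjusted p = 0.773). Tat, tyrosine aminotransferase, had 191, 351 and 638 CPM with atractylodin, against 178, 162 and 249.97 CPM with vehicle (adjusted p = 0.387). For these 3 genes the groups overlapped, as they did for Sgk1. Rgs2, an inhibitor of G-protein signalling, and the antiproliferative Tob1 had negative estimates of -0.47 ± 0.18 (adjusted p = 0.13) and -0.37 ± 0.14 (adjusted p = 0.113), and Nfkbia, the inhibitor of NF-kB, had 0.51 ± 0.17 (adjusted p = 0.139). Nfkbia passed as higher in 4 other settings, which were no filter, DESeq2 and the fits without atractylodin 2 or vehicle 2, and Tsc22d3 passed as higher without vehicle 2.

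The receptor gene and the gene that sets hormone supply within hepatocytes did not pass the test. Nr3c1, the glucocorticoid receptor gene, was read at 55.8, 60.9 and 49.8 CPM in the atractylodin libraries, against 63.0, 58.1 and 58.5 CPM in the vehicle libraries. Its groups overlapped, with a log2 fold change of -0.10 ± 0.11 (adjusted p = 0.645). Hsd11b1, whose enzyme regenerates active corticosterone inside hepatocytes, had 356, 348 and 324 CPM with atractylodin, against 313 CPM in vehicle 1 and 3 and 330 CPM in vehicle 2 (0.10 ± 0.09, adjusted p = 0.562). Of 23 tested genes for the receptor, its chaperones, cofactors and hormone metabolism, 2 rose and 1 fell, with a median of 0.23. The corepressor gene Ncor1 rose by 0.33 ± 0.09 (adjusted p = 0.0271) and the chaperone gene Hsp90ab1 by 0.35 ± 0.10 (adjusted p = 0.0484). Akr1d1, which inactivates steroid hormones, fell to 29.2 ± 7.13 CPM with atractylodin, against 43.1 ± 2.52 CPM with vehicle (adjusted p = 0.0389). Leaving out single libraries ended these calls in 4 or 5 of the 6 fits each, with the adjusted p reaching 0.135 for Ncor1, 0.224 for Hsp90ab1 and 0.168 for Akr1d1. With total counts in place of TMM, Ncor1 and Hsp90ab1 did not pass, while Akr1d1 did. Hormone levels were not measured here.

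Of 15 inflammatory genes that glucocorticoids repress, 10 were tested, 1 rose and 2 fell, with a median log2 fold change of 0.13. The 3 that passed were read at a few CPM or less in most libraries. The chemokine gene Cxcl10 fell (adjusted p = 0.0153), as did Ccl2 (adjusted p = 0.0203), while the endothelial adhesion gene Sele rose to 3.93 ± 1.29 CPM with atractylodin, against 1.60 ± 1.03 CPM with vehicle (adjusted p = 0.0431). Each of the 3 stopped passing in 3 to 5 of the leave-one-out fits, at adjusted p-values up to 0.104 for Cxcl10, 0.115 for Ccl2 and 0.237 for Sele. Better measured members overlapped between the groups. The chemokine gene Cxcl1 had 6.08, 10.3 and 114 CPM with atractylodin, against 25.3, 14.4 and 46.6 CPM with vehicle (adjusted p = 0.86), and was highest in atractylodin 3, as Mt1 and Mt2 were. The adhesion gene Vcam1 had 29.4, 20.7 and 19.3 CPM with atractylodin, against 16.1, 24.0 and 10.6 CPM with vehicle (adjusted p = 0.496).

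Conditions that also move these genes were read from other lists. Of 15 tested clock genes, 3 rose and 3 fell. Nr1d1, which encodes the clock repressor REV-ERBalpha, fell to 12.0 ± 2.28 CPM with atractylodin, against 25.8 ± 2.79 CPM with vehicle (-1.08 ± 0.17, adjusted p = 0.000994). Dbp, a clock output factor, fell by 0.49 on the log2 scale (adjusted p = 0.00619), and the clock repressor Cry1 rose by 1.03 ± 0.23 (adjusted p = 0.00929), a call lost without vehicle 3 (0.0942). Of 15 tested genes induced by fasting, 4 rose and 0 fell, with a median of 0.34. The omega-hydroxylase gene Cyp4a14 (adjusted p = 0.00454, and 0.0617 without vehicle 2) and the fasting hormone gene Fgf21 (adjusted p = 0.00649) were among them. So was Pdk4, a kinase that shuts off pyruvate dehydrogenase, with 4.47 ± 0.83 CPM with atractylodin and 0.978 ± 0.911 CPM with vehicle (adjusted p = 0.0177), which stopped passing without atractylodin 3 (0.0595) or vehicle 3 (0.101). Among 12 tested immediate early genes, which answer to handling within minutes, Ier3 rose (adjusted p = 0.0331) but stopped passing in 5 of the 6 leave-one-out fits, at up to 0.152. Jun did not overlap, with 90.6, 49.4 and 67.9 CPM with atractylodin, against 27.5, 41.2 and 36.1 CPM with vehicle (adjusted p = 0.0756). It passed as higher with no filter, with DESeq2 and without atractylodin 1 or 2. Klf6 passed as higher with no filter and without atractylodin 2. The median over the 12 was 0.14, with 8 positive estimates. The negative estimates were those of Fos (-0.51 ± 0.49), Egr1 (-0.30 ± 0.28), Nr4a1 (-0.26 ± 0.44) and Myc (-0.41 ± 0.71), which did not pass. The time of day and the feeding state at sampling were not given in the labels, and the part of these in the levels of Zbtb16 and the other genes was not tested.

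Marker genes of other liver cells were read beside the same 7 genes. Of 14 macrophage genes 0 passed with edgeR, DESeq2 or limma-voom, and 3 had an unadjusted p under 0.05 with edgeR. Cd68 passed as lower with no filter, and Cd68 and Csf1r without atractylodin 1. The summed level of the 14 was 497, 332 and 400 CPM in the atractylodin libraries, against 399, 563 and 425 CPM in the vehicle libraries. The summed level of 12 endothelial genes was 467, 459 and 444 CPM with atractylodin, against 529, 513 and 518 CPM with vehicle. This sum was lower in every atractylodin library than in any vehicle library. Of the endothelial genes 1 rose, Lyve1, with 57.6, 36.2 and 57.7 CPM with atractylodin, against 33.9, 34.2 and 26.2 CPM with vehicle (adjusted p = 0.0414). Against it 3 fell, among them Stab2 and Fcgr2b, scavenger and Fc receptors of the sinusoid. Of all these endothelial genes 0 passed without atractylodin 3, vehicle 1 or vehicle 3. Stab2 and Fcgr2b each stopped passing in 5 of the 6 leave-one-out fits. Among those fits Lyve1 passed only without atractylodin 2, and it did not pass with limma-voom, total counts alone or the replicate block. Of 3 tested cholangiocyte genes 2 fell, the secreted protein gene Spp1 (-1.16 ± 0.21, adjusted p = 0.00288) and the ductal factor gene Sox9 (-0.92 ± 0.18, adjusted p = 0.00434). The ductal marker Epcam had a log2 fold change of 0.05 ± 0.55 (adjusted p = 0.969), with groups that overlapped, and Krt7, Krt19 and Cldn7 had too few counts for the test. Of the adipocyte genes, Adipoq had no count in any library, and Cidec, a lipid droplet protein that fatty hepatocytes also make, had 55.3, 19.4 and 28.9 CPM with atractylodin, against 36.6, 62.2 and 10.1 CPM with vehicle. Of the 3 tested adipocyte genes 0 passed with edgeR, with 0 positive estimates and a median log2 fold change of -0.74. Fabp4 (-0.74 ± 0.36, adjusted p = 0.332 with edgeR) passed as lower with DESeq2 and without vehicle 3. Among 11 hepatocyte genes 1 rose, Hnf4a, a transcription factor of hepatocyte identity, with 478 ± 49.2 CPM with atractylodin and 294 ± 25.7 CPM with vehicle (adjusted p = 0.000405). The part of these shifts in the levels of the 7 genes was not tested.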

How the data were processed

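Liver RNA (500 ng per library) was made into QuantSeq 3' libraries, per the labels' protocols. Each deposited file gives unnormalized counts for 1 library, by gene symbol. Bowtie2, bedtools and the build mm10 were used, per the submitters' processing notes; the annotation, the strand setting and how multiply matching reads were counted are not given in the sources used here. Of 23282 rows, 44 repeated an earlier symbol and were kept as separate rows.

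The 7 genes and all lists were chosen with earlier results of these data known. In edgeR 4.0.16 (R 4.3.3), filterByExpr kept 12505 rows, which were scaled by TMM and tested with a robust quasi-likelihood fit, with Benjamini-Hochberg adjustment over all of them. The biological coefficient of variation was 15.0%. Errors of log2 fold changes are SE (the estimate over the square root of F), and the rest are SD over 3 libraries. Log2 CPM used a prior count of 2.

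Genes named were the 7, up to 8 passing and 4 further genes of the glucocorticoid-induced list, up to 3 of each other list, the most abundant and up to 2 passing genes of each marker list, and the 5 rows most like Zbtb16. Tsc22d3, Dusp1, Tat, Egfr, Fkbp4, Slc30a1, Sgk2, Mt3, Mt4, Adipoq, Cxcl1, Vcam1, Gata3, Cd28, Cd8b1, Ccl5, Zbtb20, Cd68, Csf1r, Epcam, Krt7, Krt19, Cldn7 and the rows most like Ddit4 and Mt2 were chosen after their values were seen. Lyve1, Jun, Klf6, Fabp4, Nr1d2, Fos, Egr1, Nr4a1 and Myc were also chosen after their values were seen. DESeq2 1.42.0, limma-voom (limma 3.58.1), other scalings and filters, a replicate block and leaving out libraries were alternatives. Positions are from GENCODE M21 (GRCm38). The test was tried on simulated data. Figures used matplotlib 3.10.9.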

Additional observations from a re-analysis of the deposited data

How the results depend on the processing

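The 906 rows that passed became 467 to 751 when 1 library was left out, the fewest without vehicle 3, with 494 without vehicle 1, and 297 without both vehicle 1 and atractylodin 3, a setting chosen after seeing the data. With fewer libraries the fit has less to estimate the spread from. Rows that rose numbered 490, and were 312 with total counts alone, 236 to 400 with 1 library left out and 151 without both. Rows that fell numbered 416, and were 707 with total counts alone, 215 to 362 with 1 library left out and 146 without both. The TMM factors were 0.990, 0.972 and 0.954 in the atractylodin libraries, against 1.016, 1.049 and 1.023 in the vehicle libraries. Leaving them out therefore sets atractylodin levels lower relative to vehicle. Why the factors differ between the groups was not tested. Total counts alone lowered the log2 fold change of Zbtb16 to 2.69 and of Fkbp5 to 0.51. DESeq2 gave 781 rows, limma-voom 884, RLE scaling 899, a mean CPM of at least 5 gave 836 and no filter gave 1345. The glucocorticoid-induced list held 4 to 10 genes that rose in every setting, 5 to 10 with 1 library left out, and 0 that fell. Of 749 values of named genes under alternatives, 629 counted as the same, 102 lost the call, 8 gained it, 9 reversed and 1 moved. For the 7 genes, the same meant an unchanged direction and a shift under the pooled SD of log2 CPM. A larger shift of theirs counted as moved, and their calls were not followed. For the other named genes, the same meant an unchanged direction and side of the threshold. Mt2 moved, to 0.70 without atractylodin 3. The log2 fold changes that reversed were those of Sgk1 (-0.014 without vehicle 3, with a range of -0.014 to 0.30), Alb (-0.11 to 0.01 with 1 library left out, 0.025 without both) and Cidec, which turned to 0.29 with limma-voom, 0.090 with the replicate block, 0.05 without both, and -0.59 to 0.90 with 1 library left out. For libraries with the same replicate number, deviations from the group means correlated at -0.03, -0.09 and 0.02 across genes. These values show no strong pairing by replicate number, but with 3 libraries per group they cannot exclude pairing. With the number as a block, 811 rows passed, 437 higher and 374 lower, and 7 of the list rose. Depth limits values of a few CPM in vehicle 1.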
